A study of Mus musculus with 24 samples.

Results

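The 10 genes described here, Kdr, Flt1, Flt4, Tek, Tie1, Eng, Pecam1, Cdh5, Esam and Emcn, encode receptors and adhesion molecules of the endothelial cell surface. They were taken by symbol from both deposited count tables, where each symbol was found once, so that 10 of the 55421 genes listed are covered, and all 10 passed the filter on low counts in every fit. The libraries came from C57BL/6 mice at embryonic day 9.5 of 2 lines, one with a Setd2-null allele and the other with a catalytic dead (CD) allele of Setd2. In each line there were homozygous (HO), heterozygous (HE) and wild type (WT) whole embryos, and HO, HE and WT yolk sacs, with 2 libraries for each combination and 24 in all. Setd2 encodes the enzyme that trimethylates lysine 36 of histone H3. The labels name no Cre or tissue-restricted driver and do not say how either allele was built. Neither protein nor methyltransferase activity was measured.

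Endothelial cells line every blood vessel, and in the mouse embryo they first form in the blood islands of the yolk sac and soon after in the embryo proper. VEGF-A binds the receptor tyrosine kinases KDR (VEGFR2), which carries most of the growth signal, and FLT1 (VEGFR1), which binds the ligand tightly and limits what reaches KDR. FLT4 (VEGFR3) answers VEGF-C and later marks lymphatic endothelium. TEK (TIE2) is the angiopoietin receptor and TIE1 its partner without a well defined ligand, while endoglin (ENG) is a co-receptor for BMP9 and BMP10. VE-cadherin (CDH5), PECAM1 and ESAM hold endothelial cells to one another, and endomucin (EMCN) is a sialomucin that coats the surface of capillary and venous endothelium.

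Library totals were 16400137 to 22113787 counts in yolk sacs and 23414255 to 27674831 counts in embryos. Levels are in CPM, counts scaled to a common library total, after TMM scaling within each tissue. Levels are therefore not on a joint scale across tissues, unlike the tests between tissues. Changes are on the log2 scale, each with the standard error (SE) of the fit. A gene was called at an adjusted p below 0.05 from the edgeR quasi-likelihood test over all genes tested (edgeR adjusted p). Setd2 averaged 98.6 CPM in null HO embryos, 163 CPM in null HE embryos and 231 CPM in null WT embryos. In null yolk sacs it averaged 77.2 CPM in HO, 117 CPM in HE and 108 CPM in the libraries labelled WT, which were below HE and far below the 184 CPM of CD WT yolk sacs. The level of Setd2 thus goes against the label of the null WT yolk sacs, so they are called labelled WT, and so are pooled groups that hold them. Setd2 in the CD line differed little, at 215 CPM in HO and 239 CPM in WT embryos, and was not called (log2 fold change -0.15, SE 0.07, edgeR adjusted p = 0.161). A change that leaves the transcript in place is not checked by its level. Null HO embryo library 2 stood apart, with a summed level of 98.4 CPM for 10 primitive erythroid markers against 1370 CPM in null HO library 1 and 2160 to 3180 CPM in null WT embryos. CD WT embryo library 2 held 1240 CPM of 12 visceral endoderm markers against 388 CPM in CD WT library 1. These are bulk tissues, in which fewer endothelial cells and less RNA per endothelial cell cannot be told apart. The labels do not say that the libraries of a group came from separate animals, so p-values measure the spread between these samples.

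All 10 genes were read in every library, and per kilobase of transcript Cdh5 was the most abundant of them in the libraries labelled WT of both tissues. Cdh5 averaged 31.3 ± 4.64 CPM per kilobase in yolk sacs labelled WT and 22 ± 1.75 in WT embryos (SD, n = 4 each, both lines pooled), and 28.7 ± 5.03 and 22.4 ± 2.43 in the CD line alone (SD, n = 2 each). Tek and Kdr followed, at 20.5 ± 3.88 and 20.3 ± 2.99 CPM per kilobase in yolk sacs, where their libraries overlapped, and at 11.9 ± 1.22 and 14.8 ± 2.15 in embryos, where they overlapped too. Tie1, Eng, Pecam1 and Esam formed a middle group of 6.72 to 10.2 CPM per kilobase in yolk sacs and 5.58 to 6.85 in embryos, in which each gene overlapped the next. Flt1 and Flt4 were lower, and Emcn was last in both tissues, at 2.03 ± 0.544 CPM per kilobase in yolk sacs and 3.50 ± 0.895 in embryos. Emcn was separated from its neighbour Flt4 in yolk sacs, and its libraries overlapped those of Flt1 in embryos.

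**Figure D1:**
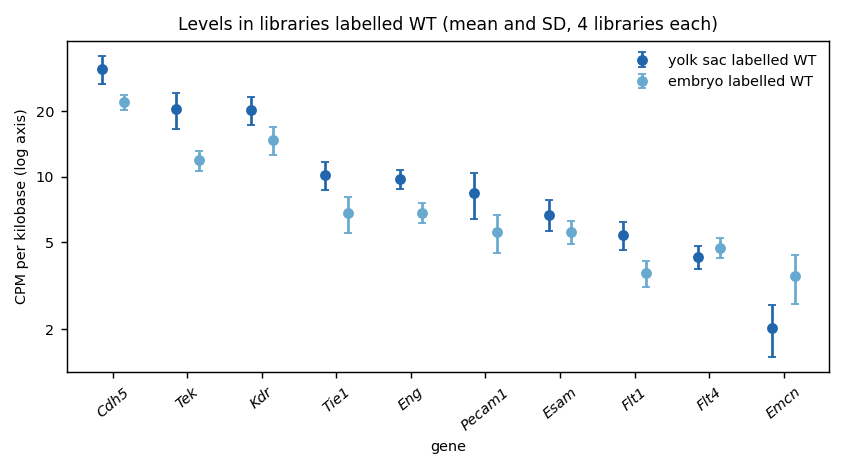
Levels of the 10 genes in libraries labelled WT, as CPM per kilobase on a log axis, ordered by their level in yolk sacs; points are means and bars SD over 4 libraries of each tissue, both lines pooled. Yolk sac points lie above embryo points for all genes but Flt4 and Emcn, with Cdh5 at 31.3 and 22 and Emcn at 2.03 and 3.50. Each tissue was scaled by itself, so distances between tissues differ from the joint fit, where Flt4 was 0.16 higher in yolk sacs (SE 0.15, not called).

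Between the tissues, 8 of the 10 genes were higher and 1 lower in yolk sacs labelled WT than in WT embryos, where 71.7% of all genes tested were called in either direction, 34.2% higher and 37.4% lower. Tek differed most, by 1.08 on the log2 scale (SE 0.17, edgeR adjusted p = 1.26e-05), and Esam least among the genes called higher, by 0.56 (SE 0.11, edgeR adjusted p = 0.000212). Flt1, Pecam1, Tie1, Eng, Cdh5 and Kdr differed by 0.77 to 0.89. Platelets and leukocytes also make Pecam1, and their markers were higher in yolk sacs. Of those tested, 8 of 8 megakaryocyte and platelet and 10 of 10 macrophage and leukocyte markers were called higher, with median changes of 3.45 and 2.88. Their part in the difference of Pecam1 was not tested. Emcn went the other way, at -0.48 (SE 0.19, edgeR adjusted p = 0.0308), and Flt4 was not called (0.16, SE 0.15, edgeR adjusted p = 0.339). The median of all genes was -0.078 and became -0.39 with library totals in place of TMM scaling. That scaling left Esam at 0.25 and not called, put Flt4 at -0.15 and Emcn at -0.80, and gave a share of higher among all called genes of 34.6%, where TMM scaling gave 47.7%. Relative to the median of all genes, Tek was 1.16 higher both ways, Esam 0.64 higher both ways and Emcn 0.41 lower both ways. Tissue coincides with the deposited table and the set of libraries, which cannot be told apart from it, and 2 of the 4 yolk sac libraries are those labelled WT in the null line. With the CD line alone, added after the data had been seen, the same 8 genes were called higher, by 0.44 to 0.95. Emcn, at -0.50, was not called (edgeR adjusted p = 0.126). Both CD WT yolk sacs held Xist (1396 and 1484 CPM) and both CD WT embryos Y-linked transcripts (266.5 and 271 CPM). Sex and tissue therefore cannot be told apart in the CD line alone.

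Emcn was the member with the largest homozygous change in both tissues of both lines. In null embryos it had 9.74 and 8.09 CPM in HO, 23.6 and 22.9 CPM in HE, and 20.9 and 23 CPM in WT libraries. Both HO libraries lay below all 4 others, and the fitted change was -1.30 (SE 0.20, edgeR adjusted p = 0.000433), a level of 0.407 of that in WT. In CD embryos Emcn had 10.7 and 8.74 CPM in HO, 20.9 and 19.8 CPM in HE, and 19.9 and 11.9 CPM in WT libraries. The HO libraries were again the lowest, but CD WT library 2, the one with high visceral endoderm markers, came close to them. The change of -0.71 (SE 0.20, edgeR adjusted p = 0.03) was -1.03 without that library and -0.29, not called, without CD WT library 1, and was also lost without either HO library (-0.87 and -0.58), with the 4 libraries compared alone (-0.70) and with a term for sex (-0.63, edgeR adjusted p = 0.207). CD HO and CD WT embryos differed in sex throughout, the HO libraries holding Xist at 1260 and 1509 CPM and the WT libraries Y-linked transcripts at 266.5 and 271 CPM, so that sex and genotype cannot be told apart in CD HO against CD WT. Of the other embryo libraries, both null WT libraries, null HO library 2 and CD HE library 1 held Xist. Both null HE libraries, null HO library 1 and CD HE library 2 held Y-linked transcripts. The part of sex in the level of Emcn was not tested beyond that term.

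In yolk sacs Emcn stood at 5.28 and 6.31 CPM in null HO, 10.3 and 12.9 CPM in null HE, and 10.2 and 15.4 CPM in the null libraries labelled WT. The HO libraries were below the other 4, at -1.14 (SE 0.31, edgeR adjusted p = 0.0525), just short of a call, and DESeq2 put the adjusted p at 0.00702. CD yolk sacs had 7.06 and 4.78 CPM in HO, 13.4 and 7.09 CPM in HE, and 9.17 and 9.29 CPM in WT. The change there was -0.63 (SE 0.31, edgeR adjusted p = 0.288) and was not called. Averaged over both lines, a contrast added after the data had been seen, Emcn fell by 1.0 in embryos (SE 0.14, edgeR adjusted p = 0.000155) and by 0.89 in yolk sacs (SE 0.22, edgeR adjusted p = 0.0182), and the embryo call held in every alternative run. The yolk sac call was lost with the sex term (-0.54) and without null HO library 1, null labelled WT library 2 or CD HO library 2 (-0.82, -0.72 and -0.76). CD HO yolk sacs held Y-linked transcripts and CD WT yolk sacs Xist, so that sex and genotype cannot be told apart in that comparison for any member. In the null line both yolk sac libraries labelled WT held Xist (1371 and 1499 CPM). Null HO library 1 held Y-linked transcripts and null HO library 2 Xist.

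Emcn was also low in HO libraries when set against the other 9 genes. The log2 CPM of Emcn minus the mean log2 CPM of the other 9 genes was -2.12 and -2.76 in null HO embryos, against -1.11 and -0.84 in null WT embryos. The CD HO embryos had -2.23 and -2.28 on this measure, against -1.30 and -1.79 in the CD WT embryos. Every HO embryo library was thus lower than every HE and WT embryo library on this measure. In yolk sacs it was -3.15 and -3.25 in null HO, against -2.53 and -2.22 in the null libraries labelled WT, and -3.00 and -3.52 in CD HO, against -2.80 and -2.44 in CD WT. All 4 HO yolk sac libraries lay below all 4 libraries labelled WT, while CD HE library 2, at -3.12, lay among the HO libraries. That CD HE library held both Xist (888.2 CPM) and Y-linked transcripts (191.6 CPM). This measure was chosen with the values known and carries no test.

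**Figure D2:**
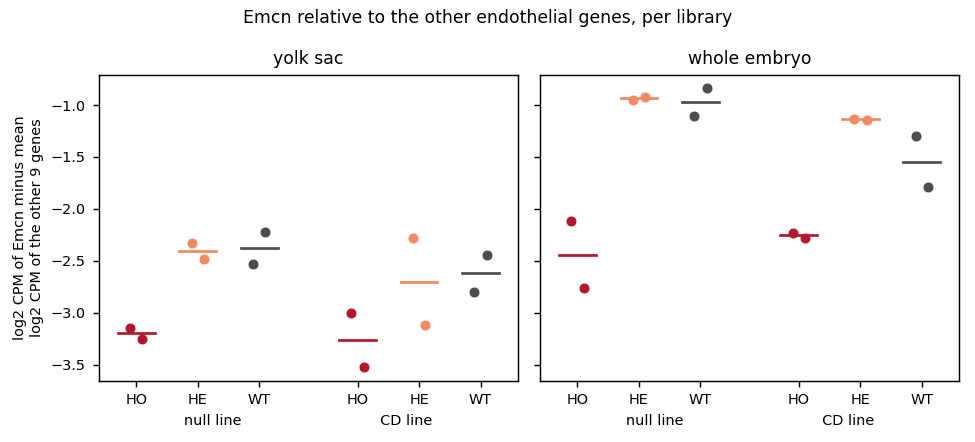
The log2 CPM of Emcn minus the mean log2 CPM of the other 9 genes in each library of yolk sacs and whole embryos; points are libraries and lines the mean of 2, with HO, HE and WT for the null and the CD line. HO embryo libraries sit between -2.12 and -2.76, below the other embryo libraries, and HO yolk sac libraries between -3.00 and -3.52, overlapped by 1 CD HE library at -3.12. That CD HE library held both Xist and Y-linked transcripts.

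The promoters of Emcn, which fell, and of Flt1 and Flt4, which were called higher in the average over lines, are shown because the 3 genes moved in opposite directions. The windows run from 250 bases before to 50 bases after the RefSeq start in GRCm38.p6, at chr3:137340828-137341127 (plus strand) for Emcn, chr5:147725962-147726261 (minus strand) for Flt1 and chr11:49609429-49609728 (plus strand) for Flt4. Capitals mark GGAA or its reverse complement TTCC, the core that ETS family factors recognise.
Emcn: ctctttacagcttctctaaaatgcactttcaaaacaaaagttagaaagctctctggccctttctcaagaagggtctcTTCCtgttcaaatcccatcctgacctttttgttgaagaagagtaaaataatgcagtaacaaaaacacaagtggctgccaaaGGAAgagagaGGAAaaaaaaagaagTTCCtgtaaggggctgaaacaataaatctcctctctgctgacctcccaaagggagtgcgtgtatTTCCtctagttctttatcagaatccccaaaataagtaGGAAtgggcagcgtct
Flt1: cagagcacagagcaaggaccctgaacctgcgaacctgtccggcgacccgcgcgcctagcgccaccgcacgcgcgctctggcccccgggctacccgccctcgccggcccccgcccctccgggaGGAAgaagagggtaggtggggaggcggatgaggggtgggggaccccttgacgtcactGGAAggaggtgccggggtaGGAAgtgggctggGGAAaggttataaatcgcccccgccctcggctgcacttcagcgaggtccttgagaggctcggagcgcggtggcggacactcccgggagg
Flt4: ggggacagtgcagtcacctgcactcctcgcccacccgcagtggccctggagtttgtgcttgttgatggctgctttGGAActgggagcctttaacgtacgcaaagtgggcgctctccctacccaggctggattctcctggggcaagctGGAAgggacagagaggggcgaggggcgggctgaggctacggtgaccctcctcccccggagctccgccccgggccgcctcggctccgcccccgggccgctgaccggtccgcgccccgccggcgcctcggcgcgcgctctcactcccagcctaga
The core occurs 6 times in the Emcn window, 4 times in that of Flt1 and 2 times in that of Flt4, and 96% of 32851 windows hold it at least once. The Emcn window has 2 CpG dinucleotides and 41% G and C, against 29 and 70.7% for Flt1, 26 and 70.3% for Flt4, and medians of 7 and 52.7% over all windows. Windows were also matched for Kdr, Tek, Tie1 and Eng, 7 of the 10 genes in all, with 19, 3, 7 and 6 CpG. Tek, next to Emcn in CpG, was fitted above 0 in null and CD HO embryos (0.45 and 0.16, not called). Eng was fitted below 0 there (-0.32 and -0.25, not called). A link between these windows and the changes was not tested. Pecam1, Cdh5 and Esam had no window in the table used.

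Among the 10 genes in null embryos, 3 were called higher and 1 lower in HO than in WT, where 32.7% of all genes tested were called, 16.2% higher and 16.5% lower, so the share of members called is near that background. In CD embryos 1 was called lower and none higher by edgeR, against a background of 16.1%, with 6.92% higher and 9.14% lower. There 3 members had an unadjusted p below 0.05, as did 30.5% of all genes, and DESeq2 called 1. The median change of the 10 was 0.07 in null embryos, against 0.015 for all genes, and 0.05 in CD embryos, against 0.002 for all genes. Other markers moved with genotype too. The 9 mitochondrially encoded transcripts summed to 13100 to 14700 CPM in HO and 17900 to 18200 CPM in WT embryos, and all 9 were called lower in both lines. The 10 erythroid markers summed to 98.4 to 1670 CPM in HO and 1220 to 3180 CPM in WT embryos, with 5 called lower in the null and 0 in the CD line, and none of them was at 0 in any library. Visceral endoderm markers summed to 462 to 570 CPM in HO and 288 to 1240 CPM in WT embryos. Of 11 tested, 1 was called higher and 1 lower in the null line, and 1 higher and 9 lower in the CD line, with a median change of -3.93. The CD fall follows CD WT library 2, at 1240 CPM. CD WT library 1 had 388 CPM, below both CD HO libraries at 462 and 491 CPM, and CD HE had 342 and 325 CPM. CD HE against CD WT had a median change of -2.48 for these markers, with 0 called. The 10 mesenchyme markers summed to 1340 to 1750 CPM in HO and 1130 to 1940 CPM in WT embryos, with 1 called higher in each line and 5 lower in the null and 4 in the CD line. Their part in the values of the endothelial genes was not tested.

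**Figure D3:**
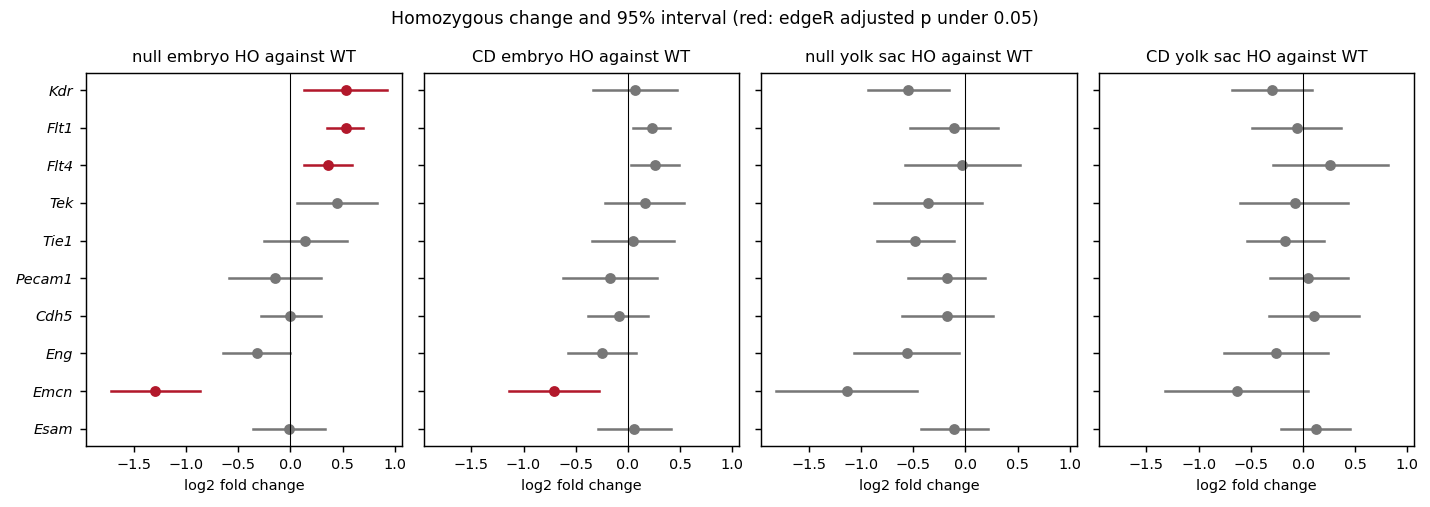
Fitted log2 fold change of HO against WT for each gene, with its 95% interval, in embryos and yolk sacs of both lines; red marks an edgeR adjusted p below 0.05. Kdr, Flt1 and Flt4 are called higher and Emcn lower in null embryos, Emcn alone is called in CD embryos, and no gene is called in yolk sacs.

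The VEGF receptors gave the higher calls. Flt1 had 60.5 and 64.6 CPM in null HO embryos, against 43.6 and 43.3 CPM in null WT embryos, with no overlap (0.53, SE 0.08, edgeR adjusted p = 0.000554). This decoy-like receptor kept its call in every alternative run for null embryos. In CD embryos Flt1 had 66.6 and 60.3 CPM in HO, against 51.3 and 57.1 CPM in WT, a change of 0.23 (SE 0.08, edgeR adjusted p = 0.0795). The CD libraries did not overlap either, and against CD HE embryos, at 49.0 and 45.7 CPM, the change was 0.42 (edgeR adjusted p = 0.00378). Flt4, the VEGF-C receptor, had 44.9 and 49.3 CPM in null HO and 38.3 and 35.2 CPM in null WT embryos (0.36, SE 0.11, edgeR adjusted p = 0.0211). In CD embryos it had 53.8 and 44.8 CPM in HO and 44.8 and 37.6 CPM in WT (0.26, SE 0.11, edgeR adjusted p = 0.116). The HO libraries were the higher ones in both lines, but the null call was lost when null WT library 1, null WT library 2 or null HO library 2 was left out, at 0.42, 0.30 and 0.28, and against HE (0.28, edgeR adjusted p = 0.0644). In the average over lines, 2 of the 10 genes were called higher and 2 lower in embryos, where 39.7% of all genes were called, 19.7% higher and 20.1% lower. Flt1 by 0.38 (SE 0.06, edgeR adjusted p = 0.000327) and Flt4 by 0.31 (SE 0.07, edgeR adjusted p = 0.00593) were the higher ones, and Emcn and Eng the lower.

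Kdr, the main VEGF-A signalling receptor, had 126 and 223 CPM in null HO embryos, against 128 and 113 CPM in null WT embryos. Only HO library 2, the one with few erythroid transcripts, was above the WT libraries, and HO library 1 lay between them. The fitted change of 0.53 (SE 0.18, edgeR adjusted p = 0.0427) became 0.05 without HO library 2 and was not called by DESeq2 (adjusted p = 0.103). Its call was also lost without either WT library, with the 4 libraries compared alone and against HE, at 0.45 to 0.63. Tek, the angiopoietin receptor, had the same layout, with 53.5 and 90.8 CPM in null HO and 54.3 and 51.4 CPM in null WT embryos (0.45, SE 0.18, edgeR adjusted p = 0.0704). Without HO library 1 the change of Tek was 0.77 and called (edgeR adjusted p = 0.0001). The part of the low erythroid share of HO library 2 in either gene was not tested. In CD embryos Kdr had 155 and 151 CPM in HO and 133 and 159 CPM in WT, and Tek 66.0 and 67.4 CPM in HO and 64.6 and 54.8 CPM in WT, and neither was called (0.07, SE 0.18, and 0.16, SE 0.18). Tie1 had 32.2 and 40.9 CPM in null HO, against 35.1 and 31.1 CPM in null WT embryos, and 39 and 30.8 CPM in CD HO, against 41.3 and 26.3 CPM in CD WT embryos. Its libraries overlapped in both lines, at 0.14 (SE 0.18) and 0.05 (SE 0.18).

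**Figure D4:**
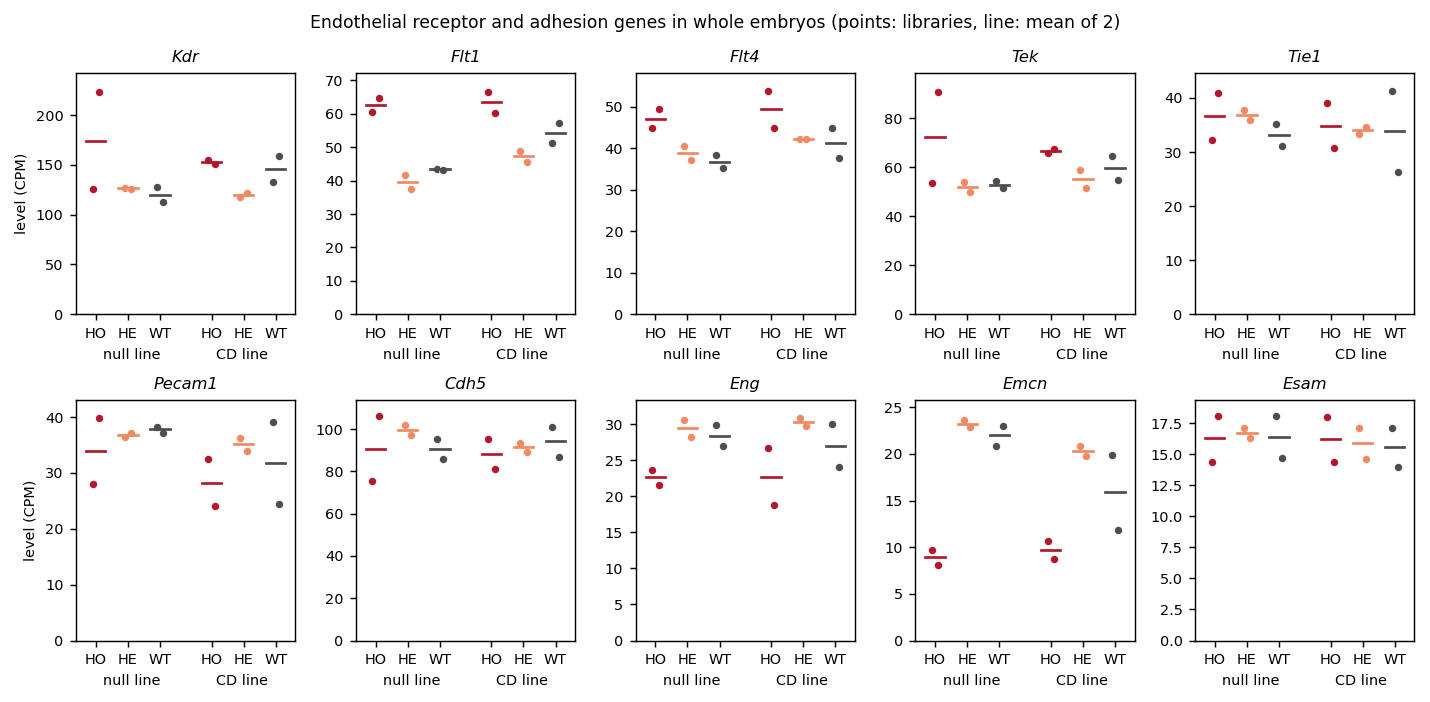
Levels of the 10 genes in CPM in each of the 12 whole embryo libraries, for HO, HE and WT of the null and the CD line; points are libraries and lines the mean of 2. Both HO groups are low for Emcn (8.09 to 10.7 CPM) and high for Flt1 (60.3 to 66.6 CPM), and the high Kdr and Tek points of null HO, 223 and 90.8 CPM, come from the same library.

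The junction genes did not separate the genotypes of embryos. Cdh5, the cadherin of the endothelial adherens junction, had 75.6 and 106 CPM in null HO and 95.1 and 85.8 CPM in null WT embryos, and 95.4 and 81.0 CPM in CD HO and 101 and 87.0 CPM in CD WT embryos. Its changes were 0.00 (SE 0.13) and -0.09 (SE 0.13), with 95% intervals of -0.28 to 0.29 and -0.38 to 0.19. Pecam1, an immunoglobulin family adhesion molecule shared with platelets and leukocytes, had 28 and 39.9 CPM in null HO and 38.3 and 37.2 CPM in null WT embryos (-0.15, SE 0.20), and 32.5 and 24 CPM in CD HO and 39.1 and 24.5 CPM in CD WT embryos (-0.17, SE 0.21). Markers of platelets and of leukocytes were low in embryos, at 7.78 to 10.4 and 6.87 to 8.78 CPM summed over 10 and 12 genes in HO, against 8.37 to 10.4 and 8.86 to 12.2 CPM in WT. Esam, a tight junction adhesion molecule, had 14.4 and 18.1 CPM in null HO and 18.1 and 14.7 CPM in null WT embryos (-0.01, SE 0.16), and 18 and 14.4 CPM in CD HO and 17.1 and 14.0 CPM in CD WT embryos (0.06, SE 0.16). All 3 genes had overlapping HO and WT libraries in both lines.

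Eng, the co-receptor, had 23.7 and 21.6 CPM in null HO, against 29.9 and 26.9 CPM in null WT embryos. These libraries did not overlap, and the change was -0.32 (SE 0.15, edgeR adjusted p = 0.115). CD embryos had 26.7 and 18.8 CPM in HO, against 30.0 and 24.1 CPM in WT (-0.25, SE 0.15, edgeR adjusted p = 0.289). The average over lines was called (-0.29, SE 0.11, edgeR adjusted p = 0.047). That call was lost with the sex term and without either null WT library, null HO library 2, CD WT library 1 or CD HO library 2, at -0.18 to -0.32, while the null change was called with the replicate block (edgeR adjusted p = 0.0429) and without a filter (0.0153). Exons of Eng overlap those of Fpgs, a folate enzyme gene on the opposite strand, and the strand setting of the counting (not given in the sources used here) leaves Eng uncertain. Fpgs was not called in either line, at 0.16 (SE 0.13) in null and 0.19 (SE 0.12) in CD embryos.

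In yolk sacs no member was called in HO against libraries labelled WT in either line by edgeR, where 6.27% of all genes were called in the null line and 3.15% in the CD line. In the null line 4 members had an unadjusted p below 0.05, Emcn, Kdr, Tie1 and Eng, where 21.9% of all genes did, and DESeq2 called 2, Emcn and Kdr. In the CD line 0 members had an unadjusted p below 0.05, where 20.1% of all genes did, and DESeq2 called 0. All 10 fitted changes were below 0 in the null line, with a median of -0.27 against 0.019 for all genes, and 6 of 10 in the CD line, with a median of -0.07 against 0.008. With the sex term Cdh5, Flt1 and Flt4 were above 0 in the null line, at 0.05, 0.06 and 0.25. For 5 members both null HO libraries lay below both libraries labelled WT, as did 27% of all genes tested. In the CD line 3 members lay below and 1 above, where 23.9% and 24.3% of all genes did. Among the genes called over the whole table in CD yolk sacs, 40.2% were higher, or 55.3% with library totals in place of TMM scaling.

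Kdr had 113 and 151 CPM in null HO yolk sacs, against 166 and 219 CPM in those labelled WT, with null HE at 167 and 216 CPM. The HO libraries were below the other 4, at -0.55 (SE 0.18, edgeR adjusted p = 0.0917). CD yolk sacs had 142 and 142 CPM in HO, against 189 and 160 CPM in WT and 209 and 171 CPM in HE (-0.30, SE 0.18, edgeR adjusted p = 0.377). The CD HO libraries were again the lowest, and averaged over lines 2 of 10 members were called lower and none higher in yolk sacs, Emcn and Kdr, where 17% of all genes were called, 8.14% higher and 8.9% lower. The averaged change of Kdr was -0.42 (SE 0.13, edgeR adjusted p = 0.0376). It was -0.12 with the sex term (edgeR adjusted p = 0.654), and its call was also lost with library totals and without null HO library 1, null labelled WT library 2, CD WT library 1 or either CD HO library, at -0.32 to -0.42. Tie1 had 35 and 42.3 CPM in null HO, against 49.3 and 58.3 CPM in null yolk sacs labelled WT (-0.48, SE 0.17, edgeR adjusted p = 0.125), and 38.6 and 44.1 CPM in CD HO, against 52.0 and 41.1 CPM in CD WT (-0.17, SE 0.17). The null HO and labelled WT libraries of Tie1 did not overlap and the CD libraries did. Tek had 62.7 and 91.5 CPM in null HO, against 92.5 and 105 CPM in those labelled WT (-0.36, SE 0.24), and Eng had 21.1 and 33.1 CPM in null HO, against 37.4 and 42.6 CPM (-0.56, SE 0.23, edgeR adjusted p = 0.175). For neither receptor did null HO libraries overlap those labelled WT. They did overlap the null HE libraries, at 86.2 and 129 CPM for Tek and 28.7 and 45.9 CPM for Eng. The CD changes of Tek and Eng were -0.08 (SE 0.24) and -0.26 (SE 0.23).

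**Figure D5:**
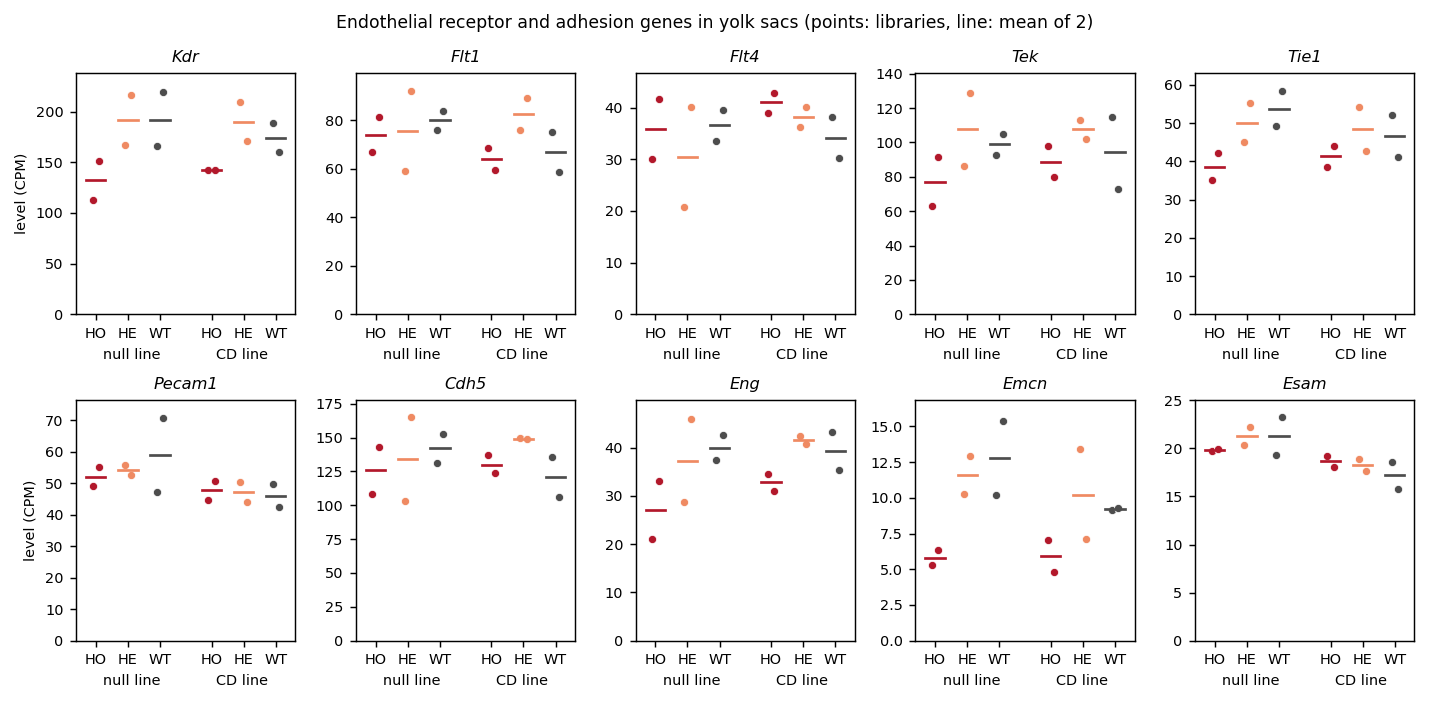
Levels of the 10 genes in CPM in each of the 12 yolk sac libraries, for HO, HE and WT of the null and the CD line; points are libraries and lines the mean of 2. HO libraries are the lowest for Kdr, at 113 to 151 CPM, and low for Emcn, at 4.78 to 7.06 CPM, while those of Flt1, Pecam1, Cdh5 and Esam overlap those labelled WT.

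Flt1 and Flt4, called higher in null HO embryos, were not called in yolk sacs. Flt1 had 66.7 and 81.1 CPM in null HO and 75.9 and 83.9 CPM in null yolk sacs labelled WT (-0.11, SE 0.19), and 68.3 and 59.3 CPM in CD HO and 75.0 and 58.5 CPM in CD WT (-0.06, SE 0.19). Flt4 had 30.0 and 41.7 CPM in null HO and 33.6 and 39.5 CPM in those labelled WT (-0.03, SE 0.25), and 39 and 42.9 CPM in CD HO and 38.2 and 30.2 CPM in CD WT (0.26, SE 0.25). Their 95% intervals, -0.53 to 0.31 and -0.58 to 0.52 in the null line, leave room for a change of the size seen in embryos only for Flt4. Pecam1, Cdh5 and Esam had changes of -0.18 (SE 0.17), -0.18 (SE 0.20) and -0.11 (SE 0.15) in the null line and of 0.05 (SE 0.17), 0.11 (SE 0.20) and 0.12 (SE 0.15) in the CD line, with overlapping libraries throughout. Markers of mesenchyme moved with genotype in yolk sacs: their summed level over 10 genes was 1390 to 1630 CPM in HO, 4030 and 6140 CPM in the null libraries labelled WT and 3160 and 2980 CPM in CD WT, none of the 10 at 0 in any library, with 6 called lower in the null and 3 in the CD line. Visceral endoderm markers summed to 31700 to 40900 CPM in HO and 43400 to 47700 CPM in yolk sacs labelled WT, with 4 of 12 called lower in the null and 3 in the CD line. The part of these shifts in the endothelial values was not tested.

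Heterozygotes showed no called member in any of the 4 comparisons with WT, by edgeR or by DESeq2. Setd2 itself was not called by edgeR in null HE embryos (-0.50, SE 0.07, edgeR adjusted p = 0.057). Both null HE embryos held Y-linked transcripts and both null WT embryos Xist, so sex and genotype cannot be told apart in that comparison. A lack of calls thus does not show a lack of change. The share of all genes called by edgeR was 0.0104% in null embryos, 0.0156% in CD embryos and 0.0% in both sets of yolk sacs, and 1 member in all, Flt1 in CD embryos (-0.19, SE 0.08, edgeR adjusted p = 0.541), had an unadjusted p below 0.05. Such a p was reached by 2.41% of all genes in null embryos, 8.81% in CD embryos, 2.03% in null yolk sacs and 3.75% in CD yolk sacs. The levels of Emcn in HE embryos, 19.8 to 23.6 CPM over both lines, stood beside 11.9 to 23 CPM in WT. The 2 null HE yolk sac libraries lay far apart, at 20.7 and 40.1 CPM for Flt4 and at 103 and 165 CPM for Cdh5.

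No member differed between the lines in its homozygous change, null minus CD, by edgeR or by DESeq2. In embryos 0.0208% of all genes were called for this difference and 1 member, Flt1, had an unadjusted p below 0.05 (0.30, SE 0.12, edgeR adjusted p = 0.305), where 13.4% of all genes did. In yolk sacs 0.0282% of genes were called and 0 members had such a p, where 3.31% of all genes did. The differences for Emcn were -0.59 in embryos (95% interval -1.20 to 0.01) and -0.51 in yolk sacs (-1.47 to 0.46), the second set against libraries labelled WT. Both intervals include a difference as large as the CD change itself. In both tissues the CD change in these contrasts cannot be told apart from the sex of the libraries.

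Between tissues, the homozygous change of Kdr in the null line differed by -1.12, yolk sac minus embryo (SE 0.29, edgeR adjusted p = 0.0192), the 1 member called, where 10.1% of all genes were. Flt1, Tek and Tie1 had differences of -0.67 (SE 0.23, edgeR adjusted p = 0.0715), -0.85 (SE 0.34) and -0.66 (SE 0.28) that were not called. The change of Emcn differed by 0.12 (SE 0.40, 95% interval -0.70 to 0.95). In the CD line no member was called by edgeR (2.94% of all genes), DESeq2 or limma-voom, and 0 had an unadjusted p below 0.05, where 17.4% of all genes did. The Kdr difference was -0.38 there (SE 0.29). Without null HO embryo library 2, the library with the high Kdr level, the null difference was -0.64 and not called (edgeR adjusted p = 0.133).

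Of the 11 VEGF and angiopoietin ligand and co-receptor genes tested, 2 were called higher and 1 lower in null HO embryos, 1 and 1 in CD HO embryos, 0 and 4 in null HO yolk sacs, and 0 and 2 in CD HO yolk sacs. Of all genes, 32.7%, 16.1%, 6.27% and 3.15% were called in these comparisons, and the embryo counts lie near that background. The median change of the 11 was 0.10, -0.06, -0.77 and -0.10 in the same order, against 0.015, 0.002, 0.019 and 0.008 for all genes. Vegfa, the ligand shared by Kdr and Flt1, had 159 and 149 CPM in null HO, against 93.2 and 96.8 CPM in null WT embryos (0.70, SE 0.08, edgeR adjusted p = 7.95e-05). CD embryos had 148 and 123 CPM of Vegfa in HO, against 97.9 and 108 CPM in WT (0.40, SE 0.08, edgeR adjusted p = 0.00708), so that HO was above WT without overlap in both lines. Vegfc, the Flt4 ligand, had 1.63 and 1.56 CPM in null HO, against 7.52 and 9.82 CPM in null yolk sacs labelled WT (-2.43, SE 0.26, edgeR adjusted p = 0.00057). In CD yolk sacs it had 1.11 and 0.956 CPM in HO, against 6.08 and 6.13 CPM in WT (-2.55, SE 0.28, edgeR adjusted p = 0.00104), while Flt4 itself was not called there. Vegfb, a ligand of Flt1, was called lower in HO in all 4 comparisons, by -0.50 and -0.67 in null and CD embryos and by -0.97 and -0.88 in null and CD yolk sacs. Of the Tek ligands, Angpt2 was higher in null HO embryos (0.80, SE 0.20, edgeR adjusted p = 0.00873) and Angpt1 lower in null HO yolk sacs (-1.11, SE 0.23, edgeR adjusted p = 0.0178). Nrp1, a co-receptor of Kdr, was lower in null HO yolk sacs (-0.74, SE 0.20, edgeR adjusted p = 0.0486). In the CD line Angpt2 was not called in embryos (0.20, SE 0.21). Angpt1 (0.09, SE 0.23) and Nrp1 (-0.41, SE 0.20) were not called in CD yolk sacs.

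Of 20 other endothelial genes, 2 were called higher and 5 lower in null HO embryos, 0 and 1 in CD HO embryos, 0 and 7 in null HO yolk sacs and 0 and 1 in CD HO yolk sacs. With 32.7% and 16.1% of all genes called in embryos and 6.27% and 3.15% in yolk sacs, the null embryo count lies near the background. The median change of the 20 was 0.02 and -0.01 in null and CD embryos and -0.44 and -0.29 in null and CD yolk sacs. The 2 called higher in null embryos, named after their values were seen, were Aplnr, the apelin receptor (0.33, SE 0.11, edgeR adjusted p = 0.0418), and Rasip1, a Ras interacting protein of endothelium (0.40, SE 0.14, edgeR adjusted p = 0.0459). Robo4, a guidance receptor of endothelium, had 1.73 and 1.47 CPM in null HO, against 4.17 and 4.29 CPM in null WT embryos (-1.40, SE 0.27, edgeR adjusted p = 0.00231). Plvap, which forms the diaphragms of endothelial fenestrae, had 41.3 and 52.4 CPM in null HO, against 109 and 125 CPM in null yolk sacs labelled WT (-1.32, SE 0.21, edgeR adjusted p = 0.00568), and it was also lower in null HO embryos (-0.45, SE 0.12, edgeR adjusted p = 0.0124). Clec14a, a C-type lectin of endothelium, had 18.1 and 29.5 CPM in null HO, against 60.2 and 92.1 CPM in those labelled WT (-1.68, SE 0.24, edgeR adjusted p = 0.00286). Robo4 (-0.41, SE 0.28) and Plvap (-0.15, SE 0.12) were not called in CD embryos. Plvap (-0.82, SE 0.21) and Clec14a (-0.74, SE 0.24) were not called in CD yolk sacs. In CD HO yolk sacs the 1 gene called was Cd34, a sialomucin like Emcn, with 29.5 and 24.3 CPM in HO, against 40.2 and 43.8 CPM in WT (-0.64, SE 0.13, edgeR adjusted p = 0.0249). Cd34 was also called lower in null HO yolk sacs (-0.52, SE 0.13, edgeR adjusted p = 0.0356) and in null HO embryos (-1.0, SE 0.28, edgeR adjusted p = 0.017). It was not called in CD embryos (-0.23, SE 0.28).

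For partners of the junction genes, of Eng and of endothelial transcription control, the calls are set beside the same shares of all genes, 32.7% in null and 16.1% in CD embryos and 6.27% in null and 3.15% in CD yolk sacs, and differences between these counts were not tested. Of 13 junction partners, 6 were called higher and 3 lower in null HO embryos, 1 and 1 in CD HO embryos and 0 in yolk sacs of either line. Jam2, a junctional adhesion molecule, had 3.70 and 3.27 CPM in null HO, against 17.7 and 17.6 CPM in null WT embryos (-2.34, SE 0.20, edgeR adjusted p = 1.03e-05), and 6.08 and 4.76 CPM in CD HO, against 13.4 and 8.61 CPM in CD WT embryos (-1.02, SE 0.19, edgeR adjusted p = 0.0048). Jup, plakoglobin, which binds cadherin tails, was higher in HO embryos of both lines, by 0.67 (SE 0.10) in null and 0.57 (SE 0.10) in CD. Jam2 and Jup are made by many cells besides endothelium. Of 17 BMP and TGF-beta partners of endoglin, 4 were called higher and 3 lower in null HO embryos and 0 and 2 in CD HO embryos, Tgfbr1 being lower in both, by -0.57 (SE 0.06) and -0.40 (SE 0.06). In null HO yolk sacs 2 of 16 tested were lower, among them Acvrl1, the receptor kinase that works with endoglin, at 15.4 and 20.5 CPM in null HO, against 30.0 and 35.9 CPM in those labelled WT (-0.88, SE 0.18, edgeR adjusted p = 0.0135), and none of 16 in CD HO yolk sacs. In null embryos Acvrl1 was called higher in HO (0.54, SE 0.19, edgeR adjusted p = 0.0474). It had 14.2 and 24.2 CPM in null HO, against 13.5 and 12.8 CPM in null WT embryos. Of 20 endothelial transcription factors, 8 were called higher and 3 lower in null HO embryos and 0 and 2 in CD HO embryos, with Foxc1 and Foxc2 lower in both lines. Of 18 tested in yolk sacs, 2 were higher and 2 lower in the null line, Nr2f2, a venous identity factor, falling by 0.88 (SE 0.16, edgeR adjusted p = 0.00827), and 0 in the CD line. Foxc1 averaged 54.5 CPM in null WT and 48.4 CPM in CD WT embryos, and Foxc2 29.3 and 33.8 CPM. In yolk sacs labelled WT they averaged 0.305 and 0.444 CPM, and 0.101 and 0.198 CPM. Which cells of the embryo hold Foxc1 and Foxc2 was not tested.

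The genes whose log2 CPM over 12 libraries correlated most with the mean of the 10 standardised members differed between tissues. In yolk sacs they were Ptgfrn, Fgfr2, Ecscr, Marcks, Amotl1, Masp1, Stox2 and Myh10, with Pearson r of 0.92 to 0.97. In embryos they were Phactr2, Fam221a, Nid1, Bves, Des, Adam12, Dipk2b and Syk, with r of 0.82 to 0.90. The members themselves did not all move together in embryos, where Flt1 and Emcn had r of -0.92. The median r of a member with the other 9 was -0.03 to 0.57 in embryos and 0.24 to 0.72 in yolk sacs. The embryo mean thus does not stand for each member. The 12 points share their libraries and scaling, and the values are a description without a test.

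In GENCODE M21 annotation of mm10, Kdr spans 45.6 kb of chromosome 5 (75932827 to 75978458) and Flt1 164.4 kb of the same chromosome (147561604 to 147726011), both on the minus strand. Tek lies on chromosome 4 at 94739289 to 94874976 and Tie1 on chromosome 4 at 118471191 to 118490061. Flt4 and Pecam1 share chromosome 11, at 49609263 to 49652739 and 106654217 to 106750628. Emcn occupies 91.1 kb of chromosome 3 (137341067 to 137432185) with 12 exon blocks, and Esam, the shortest of the 10 at 10.2 kb, lies on chromosome 9 at 37528078 to 37538319. Eng lies on chromosome 2 at 32646595 to 32682669 and Cdh5 on chromosome 8 at 104101625 to 104144511, where an antisense transcript, Gm29682, shares no exon with it. All 10 are protein-coding, and the values count reads over all exons of a gene.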

How the data were processed

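Messenger RNA of whole embryos and yolk sacs was sequenced on an Illumina instrument after KAPA library preparation, per the labels' protocols. The authors deposited 1 table per tissue with raw read counts per gene for 12 libraries. Per the submitters' processing notes, the tools were fastp 0.22.0, HISAT2 2.2.1, featureCounts 2.0.1 and DESeq2 1.32.0, with mm10. The annotation release and the strand setting were not given in the sources used here. The deposited FPKM values were not used. Groups came from the labels alone.

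From the deposited counts, 1 model per tissue was fitted to the 12 libraries with edgeR 4.0.16 under R 4.3.3, giving each group its own mean. Genes were kept by filterByExpr (minimum count 10) and scaled by TMM. Contrasts were tested by quasi-likelihood F-tests, with p-values adjusted by Benjamini-Hochberg over 19215 genes in embryos and 17755 in yolk sacs. Contrasts between tissues used 1 joint fit of 24 libraries and 20543 genes. Counting error and replicate spread enter the SE together, and it was larger in yolk sacs (common biological coefficient of variation 0.165) than in embryos (0.087). The alternatives were library totals, no filter, a replicate block, a sex term from Xist and Y-linked transcripts, DESeq2 1.42.0, limma-voom (limma 3.58.1, joint fit), the 4 libraries compared alone, HE as control and leaving out each library. A comparison with WT and HE together, the average over lines and the tissue comparison in the CD line alone were added after the data had been seen.

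The members and the gene lists were chosen with earlier results of these data known. The named genes are all members, Setd2, up to 4 called genes of smallest p per list and homozygous comparison, and the 8 genes most like the members' mean in each tissue, and the text describes part of them. Fpgs was added for its overlap with Eng. The replicate numbers do not pair the samples: replicate differences of the groups correlated by -0.122 to 0.175.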

Additional observations from a re-analysis of the deposited data

Results flagged for a closer look

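The homozygous change of Kdr in the null line was of opposite sign in yolk sac and embryo, and the test of the difference itself, yolk sac minus embryo, gave -1.12 (SE 0.29, edgeR adjusted p = 0.0192). Leaving out null yolk sac labelled WT library 2, null yolk sac HO library 1, null embryo WT library 2 or null embryo HO library 2 gave -0.92, -0.93, -1.03 and -0.64, none of them called. Kdr was 113 and 151 CPM in HO and 166 and 219 CPM in labelled WT yolk sacs, and 126 and 223 CPM in HO and 128 and 113 CPM in WT embryos.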

How the results depend on the processing

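No called value changed sign. Of the 10 members, the number called in null HO embryos was 4, and 2 against HE, and 2 to 5 when a library was left out. In CD HO embryos it was 1, and 0 with the sex term or the 4 libraries compared alone, 2 against HE or against WT and HE together, and 0 to 2 with a library left out. In null HO yolk sacs it was 0, and 4 without a filter, 2 with DESeq2, 1 with the 4 libraries alone and 2 against WT and HE together. In the yolk sac average over lines it was 2, and 1 with library totals, 4 without a filter, 0 with the sex term and 0 to 3 with a library left out. For the null tissue difference it was 1, and 4 without a filter, 3 with the sex term, 2 with DESeq2, 2 with limma-voom and 0 to 2 with a library left out. CD HE embryos gave 0, and 1 without a filter and 0 to 1 with a library left out, and the embryo difference between lines 0, and 1 without a filter and 0 to 2. The cause was not tested. The replicate block raised the null HO embryo count to 5 by Eng (-0.32, adjusted p = 0.0429) and changed no other call of a member against WT.

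Over all genes, calls in CD HO embryos were 3087, and 1112 with the sex term, 1486 with 4 libraries, 4845 against WT and HE together and 1258 to 2993 with a library left out. In null HO embryos they were 6288, and 3696 to 6315 with a library left out. In null HO yolk sacs they were 1113, and 2055 without a filter, 612 with the sex term, 1808 with 4 libraries, 2176 against WT and HE together and 157 to 564 with a library left out. In CD HO yolk sacs they were 560, and 1662, 89, 63 and 1362 under the same settings, 1151 with DESeq2 and 55 to 1093. Having 2 libraries a group and the larger spread in yolk sacs limits what could be called there.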
